A study of Rattus norvegicus with 12 samples.

Results

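The 9 genes described here, Ins1, Ins2, Iapp, Slc2a2, Pdx1, Nkx6-1, G6pc2, Abcc8 and Kcnj11, are genes that beta cells of the pancreatic islet use to make insulin and to release it when glucose rises. They were chosen as a list, by gene symbol in the annotation of the array. Of the 9 genes, 8 had a probe set (a group of short probes for 1 transcript) on the Affymetrix RAE230-A rat array, among 10411 genes measured in all. They took 10 of the 15866 probe sets that are not controls. G6pc2, which encodes the glucose-6-phosphatase subunit of islets, was not analysed here. Kcnj11 had 3 probe sets, and every other measured gene had 1.

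In beta cells, glucose enters through a transporter, its breakdown raises ATP, ATP closes a potassium channel, and the cell then depolarizes and releases granules that hold insulin. Insulin is made as a proinsulin peptide and is cut to its mature form inside the granule, where islet amyloid polypeptide (Iapp) is stored beside it. Transcription factors such as Pdx1 and Nkx6-1 hold the cell in its beta identity. Rats carry 2 nonallelic insulin genes, Ins1 and Ins2.

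Total RNA of the whole pancreas was measured on 12 arrays, from 4 groups of adult male Wistar rats. Healthy rats went untreated (HU) or were given tungstate (HT), and so did diabetic rats (DU without it, DT with it). Diabetes was induced with streptozotocin (STZ), a compound that is toxic to beta cells, and the healthy groups did not receive it. Per the sample labels, treated rats drank sodium tungstate, an oral agent that lowers glycemia, at 0.7 g/L for 1 week and then at 2 g/L for 4 to 5 weeks, and DT rats were treated until glycemia was near normal. The study's methods instead describe 1 concentration throughout and name no glycemia at which treatment stopped. The study describes the glycemia of treated diabetic rats as restored in part. HU and DU rats were kept for 5 to 6 weeks without it, and DU rats stayed hyperglycemic. Each array (HU1 to DT3) held RNA pooled from 3 rats, and p-values here rest on the variation among pools, not among single rats. Values are the deposited log2 intensities, and differences and their adjusted p-values are those of limma over all 15866 probe sets. In whole pancreas RNA, fewer beta cells and less RNA per beta cell cannot be told apart.

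The arrays had medians between 6.634 and 6.701. The 21 measured acinar marker genes had mean log2 levels between 12.96 and 13.31 on all arrays, as whole pancreas is mostly acinar tissue. There were 6 scan days and 3 chip lots. No scan day held both HU and DU arrays, whereas DT1, DT2 and DU1 shared scan day 1, and DT3 and HT3 shared scan day 5. DT1, DT2, DU1, DU2 and HU3 came from chip lot 1, and DT3, DU3 and HT3 from chip lot 3. Chip lot 2 held healthy arrays only (HU1, HU2, HT1 and HT2).

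The promoters of the 4 genes that were lower in the diabetic rats are shown. These genes were all lower in DU vs. HU animals. In DT vs. DU animals only Ins2 was called by limma (adjusted p = 0.0387). There Ins1 and Ins2 lay above the DU arrays in every DT array, Iapp in DT3 alone, and Slc2a2 in none. Any link of the motifs to these differences was not tested. The sequences are the 250 bases before the transcription start in RefSeq, build GRCr8, read 5′ to 3′ in the direction of the gene. Ins1 lies at chr1:261185869-261186118 (plus strand), Ins2 at chr1:207273806-207274055 (minus strand), Iapp at chr4:176967847-176968096 (plus strand) and Slc2a2 at chr2:113540120-113540369 (plus strand). Capitals mark matches, on either strand, to CATCTG (an E box, bound by dimers with Neurod1), TAATTA (an A box, bound by homeodomain factors such as Pdx1), TGACG (the core of a cyclic AMP response element) and CCAAT (the CCAAT box).
Ins1: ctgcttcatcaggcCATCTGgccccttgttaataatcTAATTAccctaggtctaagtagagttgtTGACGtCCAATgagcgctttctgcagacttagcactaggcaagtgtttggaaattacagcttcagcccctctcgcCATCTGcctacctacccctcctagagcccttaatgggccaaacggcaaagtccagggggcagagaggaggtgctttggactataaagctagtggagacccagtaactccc
Ins2: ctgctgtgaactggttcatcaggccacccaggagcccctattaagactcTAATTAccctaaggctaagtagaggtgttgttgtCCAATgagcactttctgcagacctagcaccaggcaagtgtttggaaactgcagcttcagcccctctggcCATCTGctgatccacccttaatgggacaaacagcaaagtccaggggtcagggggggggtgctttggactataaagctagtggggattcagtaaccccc
Iapp: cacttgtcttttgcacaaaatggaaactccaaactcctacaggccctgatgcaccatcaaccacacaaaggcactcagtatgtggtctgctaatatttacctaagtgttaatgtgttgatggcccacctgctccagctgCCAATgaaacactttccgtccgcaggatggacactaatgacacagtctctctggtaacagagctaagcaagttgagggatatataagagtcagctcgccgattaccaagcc
Slc2a2: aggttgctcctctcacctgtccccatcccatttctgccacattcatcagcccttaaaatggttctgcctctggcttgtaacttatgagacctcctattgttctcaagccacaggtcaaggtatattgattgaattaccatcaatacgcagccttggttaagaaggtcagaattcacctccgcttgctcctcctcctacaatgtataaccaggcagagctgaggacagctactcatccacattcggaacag
Ins1 held CATCTG 236 and 110 bases before its start, TAATTA at 213, TGACG at 185 and, next to it, CCAAT at 179. Ins2 held CATCTG at 98, TAATTA at 201 and CCAAT at 167, and no TGACG. Iapp held CCAAT at 111, and Slc2a2 held none of the 4 motifs. The Ins1 and Ins2 promoters had the same base at 208 of 237 aligned positions (87.8%). Among 33469 promoters of this length, 14% held CATCTG, 4.86% TAATTA, 18.2% TGACG and 34% CCAAT. RefSeq promoters were found for 7 of the 9 genes.

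The hormone genes and the glucose transporter of beta cells were lower in the untreated diabetic rats. In DU vs. HU animals, 4 of the 8 measured genes were called lower at an adjusted p under 0.05 and none higher, against 3.2% of all probe sets called in either direction and 1.73% called lower. The 4 genes were Ins2, Ins1, Iapp and Slc2a2. The median log2 difference of the 8 genes was -1.08, and that of all probe sets was -0.02. All DU arrays lay below all HU arrays for 6 of the 8 genes, an arrangement found for 16.9% of all probe sets. Kcnj11 is among the 6 by its brightest probe set only.

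Ins2, the insulin 2 gene, had log2 levels of 13.26, 13.43 and 13.32 in the HU arrays and 8.84, 8.79 and 8.26 in the DU arrays. The 2 groups lay far apart, with a spread within each that was small beside the gap. The difference was -4.71 (standard error 0.31, adjusted p = 1.4e-06), which is 26.1-fold lower in DU animals. On chips of lot 1, the mean of DU1 and DU2 minus HU3 was -4.50.

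Ins1, the insulin 1 gene, had levels of 13.68, 13.73 and 13.79 in HU and 10.86, 10.995 and 10.44 in DU arrays. It was 7.82-fold lower in DU animals (log2 difference -2.97, standard error 0.24, adjusted p = 1.04e-05). DU3 held the lowest value of both insulin genes. The fall was smaller for Ins1 than for Ins2, and the log2 ratio of Ins2 to Ins1 within an array went from -0.42, -0.30 and -0.47 in HU to -2.02, -2.21 and -2.18 in DU arrays. The ratio differed by -1.74 between the groups (exact two-sided permutation test, p = 0.1, the smallest p that 3 against 3 arrays can give). The HU and DU ratios did not overlap. Probe sets differ in brightness, so only the change of such a ratio between arrays is read. In the HU arrays both probe sets were near the top of the scale, where the brightest probe set of an array reached 14.45 to 14.56, and signal saturation there was not tested. Whether the 2 probe sets also bind each other's transcript was not tested either.

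Iapp had levels of 10.61, 11.02 and 10.85 in HU and 8.51, 8.80 and 8.78 in DU arrays, and was 4.38-fold lower in DU animals (log2 difference -2.13, adjusted p = 0.000702). Slc2a2 encodes Glut2, the glucose transporter of rodent beta cells. Its levels were 7.28, 7.63 and 7.82 in HU and 5.67, 5.95 and 5.48 in DU arrays, with no overlap. Its log2 ratio to Iapp changed by -0.25 (Iapp minus Slc2a2, DU minus HU), with overlapping arrays (exact two-sided permutation test, p = 0.2).

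The transcription factor and channel genes showed smaller differences that did not pass the test. Pdx1 had levels of 7.41, 7.26 and 7.37 in HU and 6.95, 7.03 and 7.20 in DU arrays. All 3 DU arrays lay below the HU arrays, at a log2 difference of -0.29 (95% confidence interval -0.50 to -0.08, adjusted p = 0.124). Kcnj11 encodes Kir6.2, the pore of the ATP-sensitive potassium channel. On its brightest probe set it had levels of 7.11, 7.11 and 7.04 in HU and 6.83, 6.79 and 6.88 in DU arrays, again without overlap (difference -0.26, adjusted p = 0.0754). Its other probe sets disagreed in sign, with differences of -0.13 (adjusted p = 0.488) and 0.15 (adjusted p = 0.537). On the former the arrays overlapped, and on the latter all DU arrays lay above all HU arrays.

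Abcc8, which encodes Sur1, the regulatory subunit of the same channel, differed by -0.02 (95% confidence interval -0.22 to 0.17). Nkx6-1 differed by -0.05 (95% confidence interval -0.21 to 0.11). Both probe sets were dim, and over the 12 arrays Abcc8 had a mean of 4.94 and Nkx6-1 of 5.58, under the 25th percentile of all probe set means (5.62). The HU and DU arrays overlapped for both genes.

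No scan day held both DU and HU arrays, so a fit blocked on scan day compares them only through treated arrays. It is built from the 3 scan days that held 2 groups. These gave DT1 and DT2 against DU1, DT3 against HT3, and HT1 and HT2 against HU3. The other DU and HU arrays added nothing to the estimate. In this fit Ins2 was at -2.84, Ins1 at -1.64, Iapp at -0.58 and Slc2a2 at -1.85. Because DT3 enters it as a single array, this fit cannot show whether scan day changed the DU vs. HU differences. With the chip lot as a block, all 4 genes were called. That fit joins diabetic to healthy arrays only through HU3 (lot 1) and HT3 (lot 3), the healthy arrays that shared a lot with diabetic ones.

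**Figure D1:**
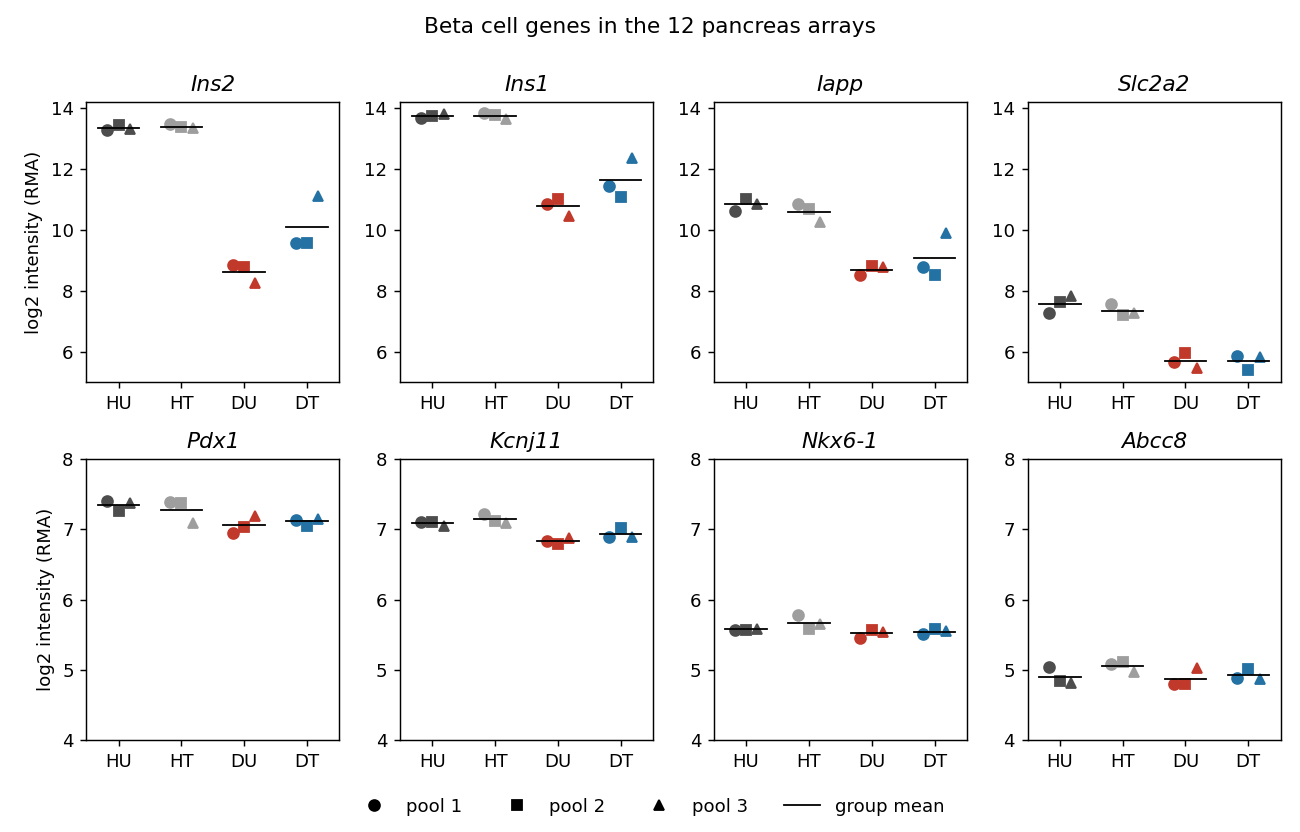
Log2 intensity (y axis) of the 8 measured beta cell genes in the groups HU, HT, DU and DT (x axis). Each point is 1 array of a pool of 3 rats, the marker gives the pool number and the line is the mean of the group, and the scale of the lower row is narrower. Ins2, Ins1, Iapp and Slc2a2 lay lower in every DU and DT array than in every healthy array, and DT3 was the highest DT array for Ins2 (11.11), Ins1 (12.36) and Iapp (9.89).

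In the treated diabetic rats, Ins2 was higher than in untreated diabetic rats, and the other 7 genes did not pass the test. In DT vs. DU animals 1 of 8 genes was called, against 1.12% of all probe sets in either direction and 0.655% called higher. The DT arrays lay above all DU arrays for 3 of the 8 genes (Ins2, Ins1 and Kcnj11), against 7.58% of all probe sets. Kcnj11 counts here by its brightest probe set, and its other 2 overlapped. The median log2 difference of the 8 genes was 0.08, and that of all probe sets was below 0.01 (0.0045).

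Ins2 had levels of 9.58, 9.56 and 11.11 in the DT arrays, all above the highest DU value of 8.84. The log2 difference was 1.45 (standard error 0.31, 95% confidence interval 0.79 to 2.12, adjusted p = 0.0387), or 2.74-fold. DT3 stood 1.54 above the mean of DT1 and DT2, and 0.454% of all probe sets showed a gap over 1 between these arrays. Without DT3 the difference was 0.94 (adjusted p = 0.00446). DT1 and DT2 lay 0.73 above DU1 within scan day 1, and DT3 lay 2.85 above DU3 within chip lot 3. The fit blocked on scan day adds nothing to this, since only scan day 1 held both DU and DT arrays. Its Ins2 difference, 0.73, is again DT1 and DT2 against DU1.

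The call on Ins2 was close to the threshold. It was lost when only the DU and DT arrays were fitted (adjusted p = 0.241), with the chip lot as a block (adjusted p = 0.0505), and without any 1 of the HU, HT or DU arrays, with adjusted p from 0.0536 without HU3 to 0.145 without DU3. The log2 difference remained between 0.73 and 1.71 in all fits tried.

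Ins1 had levels of 11.43, 11.06 and 12.36 in DT arrays, each above the DU arrays. The difference was 0.86 (95% confidence interval 0.33 to 1.38, adjusted p = 0.16), which did not pass the test. Without DT2 it was 1.13 and passed (adjusted p = 0.0289), and without DT3 it was 0.48 (adjusted p = 0.184). Iapp had levels of 8.78, 8.52 and 9.89 in DT arrays. DT1 and DT2 lay among the DU values and DT3 lay above them, so that the difference of 0.36 (95% confidence interval -0.22 to 0.95, adjusted p = 0.763) became -0.05 without DT3 (adjusted p = 0.952).

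Slc2a2 had levels of 5.88, 5.42 and 5.84 in DT arrays. DT1 and DT3 lay among the DU arrays, and DT2 was below all of them. The Slc2a2 levels of the diabetic arrays, 5.42 to 5.95, lay around the 25th percentile of all probe set means (5.62). Whether its signal there was near the background was not tested. The difference was 0.01, with a 95% confidence interval of -0.35 to 0.37 (adjusted p = 0.995). The log2 ratio of Ins2 to Slc2a2 within an array was 3.17, 2.84 and 2.78 in DU and 3.70, 4.14 and 5.27 in DT arrays. That of Ins2 to Iapp was 0.33, -0.01 and -0.52 in DU and 0.80, 1.04 and 1.22 in DT arrays. Both ratios were higher in every DT array than in every DU array, with p = 0.1 in each exact two-sided permutation test. Over the 16 ratio tests made, the smallest value that the design allowed became 0.123 after Benjamini-Hochberg adjustment.

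Pdx1 had levels of 7.14, 7.05 and 7.15 in DT arrays and differed from DU by 0.05 (95% confidence interval -0.16 to 0.26). Kcnj11 had 6.90, 7.02 and 6.89 on its brightest probe set and differed by 0.10 (95% confidence interval -0.05 to 0.26). Its other probe sets differed by -0.14 (95% confidence interval -0.41 to 0.12) and 0.04, with overlapping arrays, so that the 3 probe sets did not share a sign. Nkx6-1 differed by 0.02 and Abcc8 by 0.05, and their arrays overlapped.

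**Figure D2:**
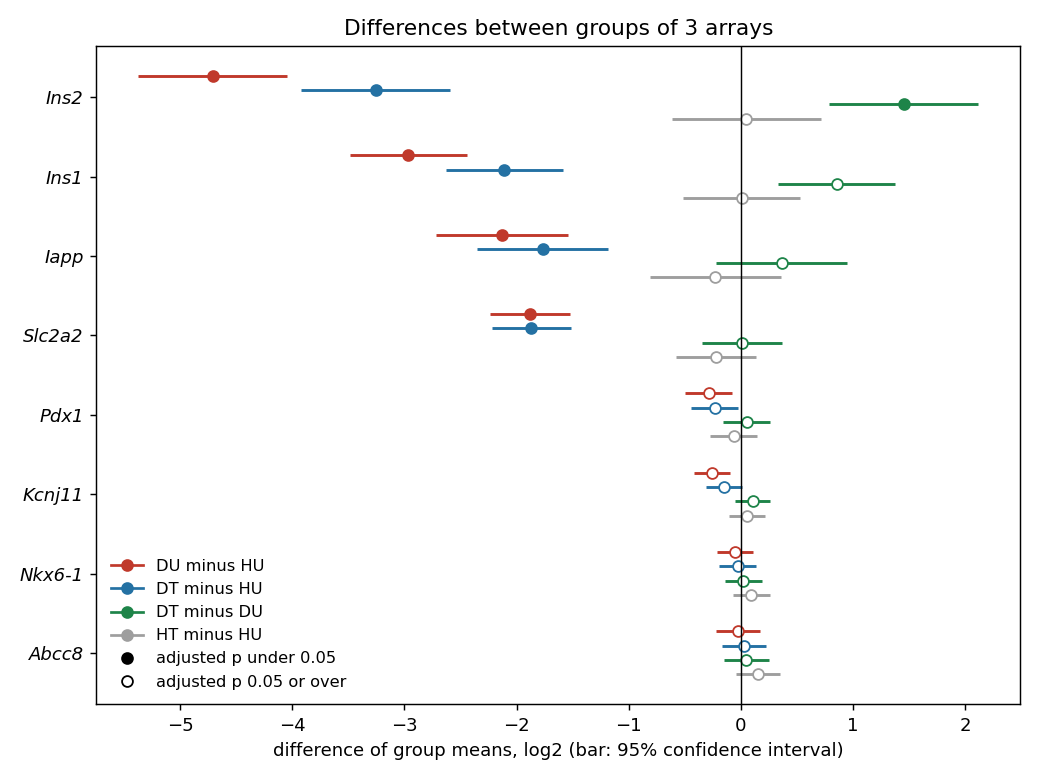
Log2 differences of group means (x axis) for the 8 measured genes (y axis), with bars for the 95% confidence interval of limma. Filled points had an adjusted p under 0.05. Ins2, Ins1, Iapp and Slc2a2 were lower in DU and in DT than in HU animals, Ins2 alone had a filled point for DT minus DU (1.45), and no gene had one for HT minus HU.

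The treated diabetic rats stayed far from the healthy level. In DT vs. HU animals the same 4 genes were called lower (1.32% of all probe sets called, 0.561% called lower). The differences were -3.25 for Ins2 (adjusted p = 0.000241), -2.11 for Ins1 (adjusted p = 0.00113), -1.77 for Iapp (adjusted p = 0.00768) and -1.87 for Slc2a2. In DT vs. HT animals, with tungstate in both groups, they were called again (0.933% of all probe sets called, 0.296% called lower). There the difference was -3.30 for Ins2 (adjusted p = 0.000338) and -1.54 for Iapp (adjusted p = 0.0165). DT3 and HT3, which shared scan day 5, differed by -2.21 for Ins2, -1.26 for Ins1, -1.44 for Slc2a2 and -0.36 for Iapp. HT3 had the lowest Iapp of the healthy arrays (10.25). The call on Iapp in DT vs. HT was lost without HT1 (adjusted p = 0.0897), without HT2 (adjusted p = 0.0679) or without DT1 (adjusted p = 0.0807). Blocking on chip lot also ended it (adjusted p = 0.186), as well as the call on Iapp in DT vs. HU (adjusted p = 0.0551). Both calls on Iapp were lost too when only the groups compared were fitted, with adjusted p = 0.0711 in DT vs. HU and 0.123 in DT vs. HT. In the fit blocked on scan day, DT vs. HT rests on DT3 and HT3 alone, and DT vs. HU reaches the HU group through this same pair. There Iapp differed by -0.44 in DT vs. HU and by -0.36 in DT vs. HT. Fewer of the 8 genes were called in that fit, and its share of all probe sets called is not given here. DT vs. DU and DT vs. HU share the DT arrays, and DU vs. HU and DT vs. HU share the HU arrays, so these comparisons are not independent of each other.

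The 3 treated diabetic pools can be placed between the 2 untreated groups as a percentage of the log2 gap, counted from the DU mean up to the HU mean. For Ins2, DT1 stood at 20.1%, DT2 at 19.8% and DT3 at 52.7%. For Ins1 the positions were 22.5%, 10.1% and 53.9%. DT3 stood apart from the other treated pools for both insulin genes by a similar share of the gap. For Iapp they were 3.80%, -8.58% and 55.9%, and for Slc2a2 9.32%, -15.1% and 7.43%. DT3 was past the middle of the gap for the 3 hormone genes and near the DU mean for the transporter, whose probe set was dim in the diabetic arrays. On the linear scale, Ins2 in DT1, DT2 and DT3 was 7.37%, 7.29% and 21.4% of the HU mean, and the DU mean was 3.89%.

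**Figure D3:**
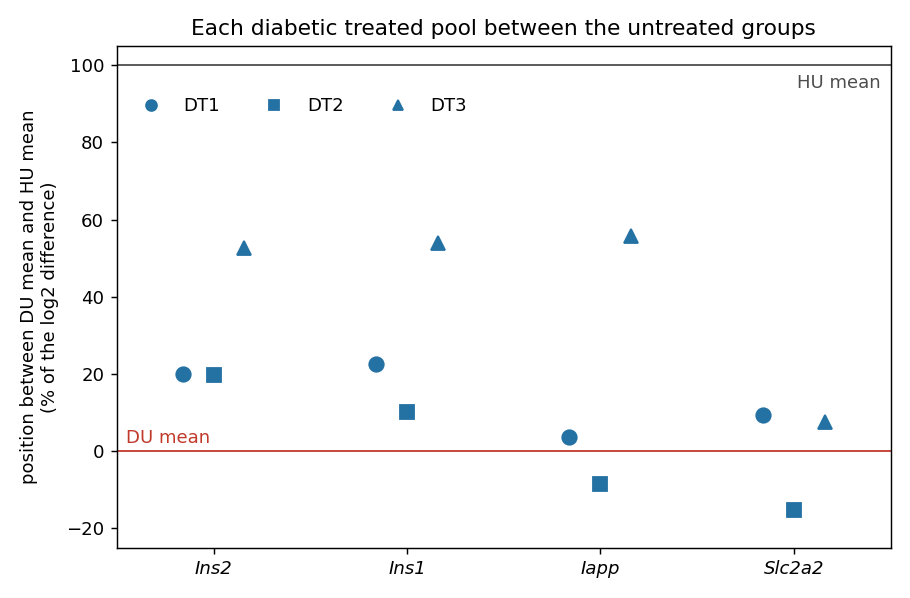
Position of the arrays DT1, DT2 and DT3 (markers) between the DU mean (red line) and the HU mean (grey line), as a percentage of the log2 difference between both means (y axis), for 4 genes (x axis). DT3 stood at 52.7% to 55.9% for Ins2, Ins1 and Iapp and at 7.43% for Slc2a2.

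The spread among the DT pools was large for the hormone genes. The standard deviation of the 3 DT arrays was 0.89 for Ins2, 0.67 for Ins1 and 0.73 for Iapp, and the median over all probe sets was 0.13. Only 0.107%, 0.359% and 0.284% of probe sets had a DT standard deviation at least as high. Slc2a2 had 0.26, a value that 12% of probe sets reached. In the HU group the standard deviations were 0.09 for Ins2 and 0.05 for Ins1. With group means removed, Ins1 and Ins2 correlated at 0.95 over the 12 arrays and at 0.91 over the 9 arrays without the DT group. Ins2 and Iapp correlated at 0.82, and at 0.08 without the DT group. For Ins1 and Iapp the values were 0.84 and 0.23. Slc2a2 correlated at 0.58 with Ins1 and at 0.40 with Ins2, and without the DT group at 0.71 and 0.58. These values describe 12 arrays that share normalization and, for the DT group, rest mainly on DT3.

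DT3 was also the highest DT array for 4 of 5 hormones of other islet cells (Gcg, Sst, Ppy and Pyy) and the lowest for Ghrl. Gcg (glucagon, alpha cells) had levels of 8.36, 7.79 and 9.32 in DT1, DT2 and DT3, Sst (somatostatin, delta cells) 8.98, 8.68 and 10.10, and Ppy (pancreatic polypeptide, PP cells) 9.55, 8.58 and 10.15. Ghrl (ghrelin, epsilon cells) had 7.48, 7.68 and 7.27. The mean of 5 non-beta islet hormone genes was 8.38, 8.07 and 8.98. Relative to this mean, the log2 level of Ins2 was 0.40, 0.27 and -0.27 in DU and 1.19, 1.49 and 2.13 in DT arrays. The DT arrays lay above the DU arrays on this scale too, by 1.47 (exact two-sided permutation test, p = 0.1). Iapp relative to the same mean was 0.07, 0.29 and 0.26 in DU and 0.40, 0.45 and 0.91 in DT arrays. It differed by 0.38, without overlap (exact two-sided permutation test, p = 0.1). Slc2a2 relative to the same mean differed by 0.03 between DT and DU, and its arrays overlapped (exact two-sided permutation test, p = 0.9). The mean includes Sst, whose own DT vs. DU difference is given below. In DU vs. HU animals 1 of the 5 hormone genes was higher, Sst by 1.32 (adjusted p = 0.0217), and Gcg differed by 0.11 (adjusted p = 0.872). In DT vs. DU none passed the test with all arrays, where Sst differed by -0.96 (adjusted p = 0.177). Without DT3 Sst was called lower, at -1.38 (adjusted p = 0.00124).

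Marker genes of other cell types moved between the DT pools as well. The mean of 18 leukocyte genes was 6.92, 7.19 and 7.91 in DT1, DT2 and DT3, that of 16 stellate, fibroblast and matrix genes 7.25, 7.34 and 7.90, and that of 9 endothelial genes 6.98, 7.15 and 7.35. The summed linear intensity of the leukocyte genes ranged from 3338 to 8153 in DT arrays and from 5451 to 8257 in DU arrays. The 21 acinar genes had means of 13.31, 13.28 and 13.15, lowest in DT3. The part of these differences in the values of the beta cell genes was not tested. Of the acinar genes, 1 was called higher (Prss2) and 1 lower (Amy2a3) in DU vs. HU. Of 12 duct genes Tff2 was called lower. No leukocyte, stellate or endothelial gene was called there. Over all probe sets 3.2% were called in DU vs. HU, so lists of this size would hold few or no calls at that share. In DT vs. DU animals the acinar gene Amy2a3, a pancreatic amylase, was higher by 5.01 (adjusted p = 2.02e-05) and the duct list gene Tff2, a trefoil peptide, by 4.96 (adjusted p = 3.77e-11). Spp1 (osteopontin), another duct list gene, was lower by 0.53 (log2 difference -0.53, adjusted p = 0.0319). With all arrays no leukocyte, stellate or endothelial gene was called by limma at an adjusted p under 0.05. Over all probe sets 1.12% were called in DT vs. DU, so the absence of calls in these lists is near that share. Without DT3, 5 of 16 stellate, fibroblast and matrix genes and 1 of 18 leukocyte genes were called lower. The share of all probe sets called in that fit is not given here, so these counts cannot be set against it. The part of these genes' cells in the Ins2 difference was not tested.

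None of the 8 genes was called between treated and untreated healthy rats. In HT vs. HU animals 0 of 8 were called by limma at an adjusted p under 0.05, 0 at an unadjusted p under 0.05 and 0 at a B-statistic above 0, against 0.0063% of all probe sets at the adjusted p. Ins2 had 13.47, 13.36 and 13.32 and Ins1 13.84, 13.76 and 13.62 in HT arrays, and both genes overlapped the HU arrays. Iapp had 10.86, 10.69 and 10.25, and Slc2a2 7.57, 7.21 and 7.28. The tungstate effect in diabetic rats minus that in healthy rats was 1.41 for Ins2 (adjusted p = 0.319) and 0.85 for Ins1 (adjusted p = 0.483). By this interaction test 0 of 8 genes were called, 2 had an unadjusted p under 0.05 and 0 had a B-statistic above 0, against 0.422% of all probe sets called. The effect on Ins2 was therefore not shown to differ between diabetic and healthy rats.

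Of 18 measured genes for proinsulin processing and the secretory granule, 7 were lower, 1 was higher and 10 were not called in DU vs. HU, against 3.2% of all probe sets called. The list had a median log2 difference of -0.43 (-0.02 over all probe sets). Scg2, which encodes the granule protein secretogranin II, had levels of 7.41, 7.54 and 7.92 in HU and 4.81, 4.88 and 4.83 in DU arrays (difference -2.78, adjusted p = 0.000303). Cpe, the carboxypeptidase that trims the ends of proinsulin fragments, had 8.82, 8.91 and 9.15 in HU and 7.19, 7.05 and 6.89 in DU arrays (difference -1.92, adjusted p = 0.00178). Neither gene had overlapping arrays. Pcsk2, a convertase that cuts proinsulin, differed by -0.80 (adjusted p = 0.00122), Pcsk1n, which encodes the convertase inhibitor proSAAS, by -0.86 (adjusted p = 0.00645) and Scg5, a chaperone of Pcsk2, by -0.85 (adjusted p = 0.0294). Resp18 (-1.10) and Ptprn2 (-0.49) were the other lower genes, and Ica1 was the higher one (0.46, adjusted p = 0.028). Scg5, Resp18 and Ica1 are named because they complete the count and were chosen after their values were seen. Many of these genes are also used by other islet cells.

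In DT vs. DU animals 1 of these 18 genes was higher and none lower, against 1.12% of all probe sets called. Ptprn2, which encodes a granule membrane protein and autoantigen (phogrin), had levels of 10.35, 10.34 and 10.55 in HU, 9.99, 9.86 and 9.93 in DU and 10.55, 10.29 and 10.40 in DT arrays. It was higher by 0.48 in DT (adjusted p = 0.0267), and its DT arrays overlapped the HU arrays. Without DT3 its difference was as large (0.49), but the adjusted p was 0.0504 and none of the 18 was called. Scg2 had 5.22, 5.06 and 6.42 in DT arrays, all above DU (difference 0.72, adjusted p = 0.479). Cpe had 6.62, 6.36 and 7.65, with DT1 and DT2 below the DU arrays and DT3 above them. In DT vs. HU animals 5 of 18 were lower, against 1.32% of all probe sets called. They were Scg2 (-2.06), Cpe (-2.08), Pcsk2 (-0.85), Pcsk1n (-0.74) and Resp18 (-1.20).

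**Figure D4:**
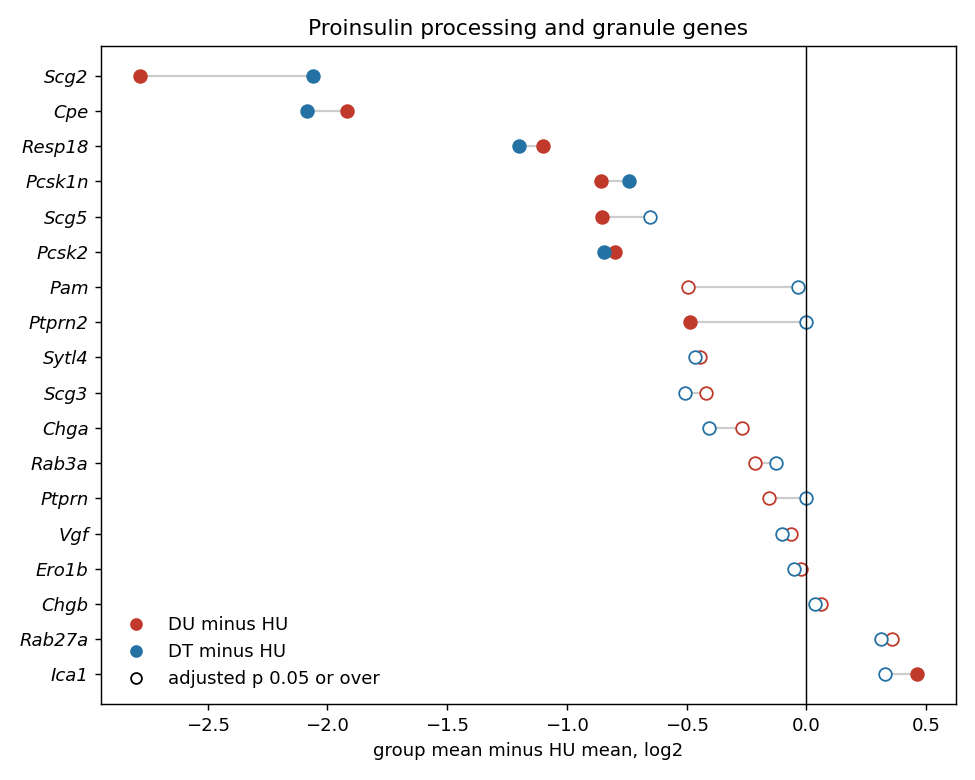
Log2 difference from the HU mean (x axis) in DU and in DT animals for the 18 measured genes of proinsulin processing and the granule (y axis), with filled points at an adjusted p under 0.05. Scg2 and Cpe lay lowest in both groups, and Ptprn2 went from -0.49 in DU to 0.00 (-0.0029) in DT animals.

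The counts of the other beta cell lists are read against the same shares of all probe sets called, 3.2% for DU vs. HU and 1.12% for DT vs. DU. Of 14 measured islet transcription factors, counting Pdx1 and Nkx6-1, 2 were lower in DU vs. HU and none was called in DT vs. DU, with a median of -0.08 in DU vs. HU. They were Sox4 (8.02, 8.06 and 8.09 in HU, 7.03, 7.03 and 7.04 in DU arrays, with a difference of -1.02 and an adjusted p = 0.000982) and Foxa2 (-0.40, adjusted p = 0.0408). Neurod1, a factor that binds the insulin E box, had a difference of -0.50 (adjusted p = 0.0695). In DT arrays Sox4 had 7.32, 7.41 and 7.75, all above DU and below HU (difference from DU 0.46, adjusted p = 0.194).

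Of 10 measured genes of the potassium channel and of excitation, none was called in DU vs. HU or in DT vs. DU by limma at an adjusted p under 0.05, and their median in DU vs. HU was 0.07. Of 14 exocytosis genes, Cadps, which primes granules for release, was lower in DU vs. HU (-0.77, adjusted p = 0.0075), and none was called in DT vs. DU. Of 19 genes for surface receptors and other beta cell products, 3 were lower in DU vs. HU and none was called in DT vs. DU. These were Nnat (-1.08, adjusted p = 0.000938), Cd81 (-0.56, adjusted p = 0.032) and Enpp1 (-0.51, adjusted p = 0.0362). Of 3 measured genes of glucose uptake and phosphorylation, only Slc2a2 was called, and Slc2a1, which encodes the widely expressed transporter Glut1, differed by -0.21 (adjusted p = 0.182). None of 12 genes that are normally kept low in beta cells or mark their dedifferentiation was called in either comparison with all arrays. Zfp36l1 was lower in DT vs. DU without DT3, at -0.43 and an adjusted p = 0.0428 (limma). The median of the 12 genes in DU vs. HU was 0.11. How much of their signal in whole pancreas RNA came from beta cells was not tested, so these values do not show the state of the beta cells.

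Genes with similar levels over the 12 arrays were sought among brighter probe sets, with the 9 listed genes left out. The 10 genes most like the mean of Ins1 and Ins2 were Man2b1 (Pearson r = 0.977), Aldh1a1 (0.965), Apob (0.960), Dpm3, Aga, Sox4, Prune2, Elapor1, Tmbim6 and Vkorc1 (0.935). Of the genes left out, Iapp correlated at 0.972 with Ins1 and at 0.965 with Ins2. Man2b1 encodes a lysosomal alpha-mannosidase, and Aldh1a1 a retinaldehyde dehydrogenase. Man2b1 differed by -1.25 in DU vs. HU (adjusted p = 4.92e-05) and had 8.33, 8.41 and 8.79 in DT1, DT2 and DT3, so that DT3 was the highest here too. With the 9 listed genes again left out, the 5 genes most like Slc2a2 were Apob (0.949), Fahd2a, Cpe, Elapor1 and Myh1 (0.931). Slc2a2 correlated as highly with Ins1 (0.950), Iapp (0.944) and Ins2 (0.942), and at 0.805 or lower with the other measured members. These are descriptions of 12 arrays in which the gap between healthy and diabetic groups sets most of the correlation.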

How the data were processed

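Total RNA of whole rat pancreas was hybridized to 12 RAE230-A arrays (Affymetrix), with 3 per group, and the groups HU, HT, DU and DT follow the sample titles. The authors ran RMA in Bioconductor (background adjustment, quantile normalization and a summary per probe set), and the deposited values are log2 intensities per probe set. The sources used here do not give the package version. Scan day and chip lot came from the deposited array records.

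A mean per group was fitted to 15866 probe sets, without 57 controls, with limma 3.58.1 in R 4.3.3. Within each comparison, p-values received Benjamini-Hochberg adjustment, and a gene was called at an adjusted p under 0.05. A gene was represented by its probe set with the highest mean over the 12 arrays. Ratios within an array were compared by exact permutation, and the fit was tested on simulated data. Gene names came from the platform annotation, in which 12783 probe sets had 1 gene symbol, 312 several and 2771 none. Promoters and motif matches came from RefSeq (GRCr8) with Python 3.11.15.

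The genes and lists were chosen with earlier results of these data known. Named were all measured members, up to 4 genes per list with the smallest adjusted p in DU vs. HU (3 for DT vs. DU), and the genes with the most similar levels. Alternatives were other normalization, centring, call rules and probe set choice, a filter on dim probe sets, other limma settings, fewer arrays, and a block for replicate number, chip lot or scan day. Leaving out DT3 for the gene lists was added after seeing the data. The number of arrays limits the precision.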

Additional observations from a re-analysis of the deposited data

Results flagged for a closer look

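Among the marker genes named in the report, 2 had a tungstate effect that differed between diabetic and healthy rats by the interaction test. The pancreatic amylase gene Amy2a3 had an interaction of 5.15 on the log2 scale (adjusted p = 0.00107, limma). The trefoil peptide gene Tff2 had one of 4.95 (adjusted p = 3.71e-09, limma). No measured beta cell gene of the 8 passed this test.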

How the results depend on the processing

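The calls in DU vs. HU, DT vs. HU and DT vs. HT held for at least 3 of 4 genes under all alternatives other than the scan day block, and HT vs. HU and the interaction stayed at 0. Fewer genes were called in the fit blocked on scan day, where all 3 of these comparisons rest on DT3 against HT3. The share of all probe sets called in that fit is not given here. In DT vs. DU, the count went from 1 to 0 when only the groups compared were fitted, with trend and robust settings, with the chip lot as a block and with the replicate block. Leaving out 1 array gave 0 to 2.

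The replicate numbers were not treated as pairs in the main fit. Deviations from the group means correlated between -0.29 and 0.31 in the 18 pairs of arrays that share a number (median 0.03, 5 over 0.1). In the 36 pairs from different groups with different numbers they correlated between -0.36 and 0.28 (median -0.02, 10 over 0.1). The ranges overlap, so this comparison cannot settle whether the numbers pair the samples. The replicate block put Ins2 at an adjusted p of 0.0627 in DT vs. DU and changed no other call.

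Signs turned for small, uncalled differences. Leaving out 1 array gave these ranges. In DT vs. DU, Slc2a2 ranged from -0.0996 to 0.157, Iapp from -0.0509 to 0.636, Pdx1 from -0.00189 to 0.119 and Nkx6-1 from -0.00995 to 0.0484. Abcc8 ranged from -0.0986 to 0.047 in DU vs. HU and from -0.0196 to 0.0958 in DT vs. HU. In HT vs. HU, Ins1 ranged from -0.0402 to 0.0667 and Pdx1 from -0.117 to 0.0343. Blocking on scan day put Abcc8 at 0.0428 in DU vs. HU, Slc2a2 at -0.0229 in DT vs. DU, Nkx6-1 at 0.00169 in DT vs. HU, and Pdx1 at 0.0736 in DT vs. HU, 0.00837 in HT vs. HU and 0.0652 in DT vs. HT. With the chip lot as a block, Abcc8 was at 0.0622 in DU vs. HU, and in HT vs. HU Ins1 at -0.0578 and Ins2 at -0.0804. Quantile normalization put Abcc8 at 0.00954 in DU vs. HU. The mean of its 3 probe sets put Kcnj11 at -0.00059 in DT vs. DU and -0.0345 in the interaction. The cause of these changes was not tested. The dim probe sets of Nkx6-1 and Abcc8 limit what their values can show.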
